A study of Mus musculus with 10 samples.

Results

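The receptors, co-receptors and ligands of the vascular endothelial growth factor (VEGF) family were followed as 9 genes: the receptors Kdr, Flt1 and Flt4, the neuropilins Nrp1 and Nrp2, and the ligands Vegfa, Vegfb, Vegfc and Pgf. They were found by symbol, as 9 of the 23238 gene symbols that all 10 count files listed. RNA came from endothelial cells purified from gliomas grown in mouse brain after injection of GL26l cells, a mouse glioma line, into C57BL/6 mice. The Sox7 arm held 2 control and 2 deficient libraries and the Sox17 arm held 3 of each, numbered as 2 Sox7 sets and 3 Sox17 sets of 1 control and 1 deficient library each. Deficient mice carried Sox7fl/fl or Sox17fl/fl alleles with Cdh5(BAC)-CreERT2, a recombinase driven by the promoter of the endothelial cadherin gene and switched on by tamoxifen (20 mg/kg). Sox7 and Sox17 are transcription factors of the SoxF group. The labels call the control groups Sox7 control and Sox17 control. They give neither the controls' alleles nor whether the controls received recombinase or tamoxifen, so effects of these agents and of the deletion cannot be told apart. The labels give no age and do not say whether a library came from 1 animal or from pooled animals.

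VEGF-A, made by hypoxic tumour cells and by stromal cells, drives vessel growth mainly through VEGFR2, the product of Kdr. VEGFR1, the product of Flt1, binds VEGF-A, VEGF-B and placental growth factor (Pgf) tightly but signals weakly, and its soluble form acts as a decoy. VEGFR3, the product of Flt4, is the receptor for VEGF-C, and neuropilins hold VEGFs and class 3 semaphorins at the cell surface beside the VEGF receptors and plexins.

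The sequences just upstream of 3 genes are shown, because several results below turn on the Flt1 to Kdr ratio and on the ligand gene Vegfc. Each is the 250 bases before the RefSeq start, on GRCm38.p6 and read 5′ to 3′ along the gene. Kdr was taken from chr5:75978456-75978705 on the minus strand, Flt1 from chr5:147726012-147726261 on the minus strand and Vegfc from chr8:54077282-54077531 on the plus strand. Capitals mark GGAA or its reverse complement TTCC, the core of the motif bound by ETS factors.
Kdr: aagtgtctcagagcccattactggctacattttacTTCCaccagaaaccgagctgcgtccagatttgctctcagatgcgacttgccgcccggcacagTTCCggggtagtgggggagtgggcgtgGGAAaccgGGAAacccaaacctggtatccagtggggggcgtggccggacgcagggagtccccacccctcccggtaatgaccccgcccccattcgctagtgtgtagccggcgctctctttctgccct
Flt1: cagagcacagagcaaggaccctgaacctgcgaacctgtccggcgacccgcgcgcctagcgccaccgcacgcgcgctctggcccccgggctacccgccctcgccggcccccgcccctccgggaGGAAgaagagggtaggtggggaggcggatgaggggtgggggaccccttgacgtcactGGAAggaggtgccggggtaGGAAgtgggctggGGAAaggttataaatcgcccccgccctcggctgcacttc
Vegfc: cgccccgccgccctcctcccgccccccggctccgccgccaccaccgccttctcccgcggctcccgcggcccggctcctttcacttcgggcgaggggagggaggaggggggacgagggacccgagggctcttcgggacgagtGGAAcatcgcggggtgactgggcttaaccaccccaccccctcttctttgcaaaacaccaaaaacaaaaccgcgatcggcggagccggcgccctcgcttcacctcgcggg
RefSeq gave 11 upstream stretches for the 9 genes, all 9 matched by symbol. GGAA or TTCC was in 9 of the 11, against 93.4% of 32851 upstream stretches of the same length, and was missing from both stretches of Pgf. ACAAT or ATTGT, the core bound by SOX factors, was in 0 of the 11, against 27.7% of all. ACGTG or CACGT, the core bound by hypoxia-inducible factors, was in 1 of the 11, the second one listed for Vegfa, against 16.6% of all. That stretch, chr17:46025164-46025413 on the minus strand, lies before a later start and inside the gene (chr17:46016993-46032369). The first stretch listed for Vegfa held no match. These matches describe letters in these windows.

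Total counts ran from 2085020 in Sox17 control 1 to 35098704 in Sox17-deficient 2. Levels are given as CPM (counts scaled to a common library size), and 3 counts, used as a floor, were worth between 0.0847 and 1.36 CPM. The targeted genes were low where the labels said so. Sox7 had 23.1 and 0.577 CPM for the control and the deficient library in Sox7 set 1 and 5.9 and 0.664 in set 2, and Sox17 had 174 and 1.93, 90.1 and 1.07, and 93.4 and 6.7 in the Sox17 sets. The 14 endothelial reference genes summed to between 7100 and 16400 CPM, and all 14 were detected well enough to be tested. Library Sox7-deficient 1 stood apart: its 12 macrophage and microglia markers summed to 13800 CPM, against 813 in its control and 18.2 to 504 in the other 8 libraries. Its endothelial reference, the mean log2 level of the 14 genes, was 7.79, against 8.42 to 8.83 elsewhere. Astrocyte markers reached 640 and 666 CPM in Sox7 set 2, glioma and neural progenitor markers summed to between 55.3 and 155 CPM, fibroblast markers to between 0.184 and 45.7 CPM and T cell markers to between 0 and 6.06 CPM. Nes alone made 54.7 CPM of the lowest glioma and neural progenitor sum (Sox17-deficient 2) and 144 CPM of the highest (Sox7-deficient 2). In Sox7 control 2 it made 38.9 of 76.8 CPM. In such purified populations, fewer cells of a type and less RNA per cell cannot be told apart.

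The receptor genes Flt1 and Kdr were among the most abundant transcripts of these cells, Flt4 was lower, and the ligands lay near the middle of the tested genes, at ranks 4338 to 7968. Over the 10 libraries Flt1 averaged 2420 ± 854 CPM (SD) and ranked 21 of 13040 tested genes, and Kdr averaged 1350 ± 305 CPM and ranked 56. Nrp1 (376 ± 164 CPM), Nrp2 (195 ± 79.6 CPM) and Flt4 (114 ± 32.2 CPM, rank 1665) followed. Flt4 is known best from lymphatic vessels. The summed level of 5 lymphatic markers, 3 of them tested, was 0 to 30.2 CPM, and Prox1, which defines lymphatic endothelium, was at 0 to 3.97 CPM and at 0 in 5 of the 10 libraries. Among the ligands Pgf averaged 38.6 ± 13.1 CPM, Vegfa 21 ± 25, Vegfc 14.3 ± 9.44 and Vegfb 11.3 ± 7.31.

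The spread over libraries was smallest for Kdr, with a coefficient of variation of 22.6%, and largest for Vegfa, with 119%. The order of the means was Flt1, Kdr, Nrp1, Nrp2, Flt4, Pgf, Vegfa, Vegfc and Vegfb. Kdr and Nrp1, and Flt4 and Pgf, were farther apart than their SDs, whereas the other neighbours in this order overlapped within 1 SD. Flt1 nevertheless had more counts than Kdr in each of the 10 libraries. The labels name a kit that reads a tag near the 3′ end, for which a count does not grow with transcript length. The catalogue number beside the name may belong to another kit of the same maker, so levels per kb are given too. Per kb of the longest protein-coding transcript the levels were 351 CPM per kb for Flt1, 228 for Kdr, 105 for Nrp1, 29 for Nrp2, 18.6 for Pgf, 18.2 for Flt4, 8.82 for Vegfb, 6.09 for Vegfa and 5.84 for Vegfc. The first 4 places were the same on both scales and the lower places were not.

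**Figure D1:**
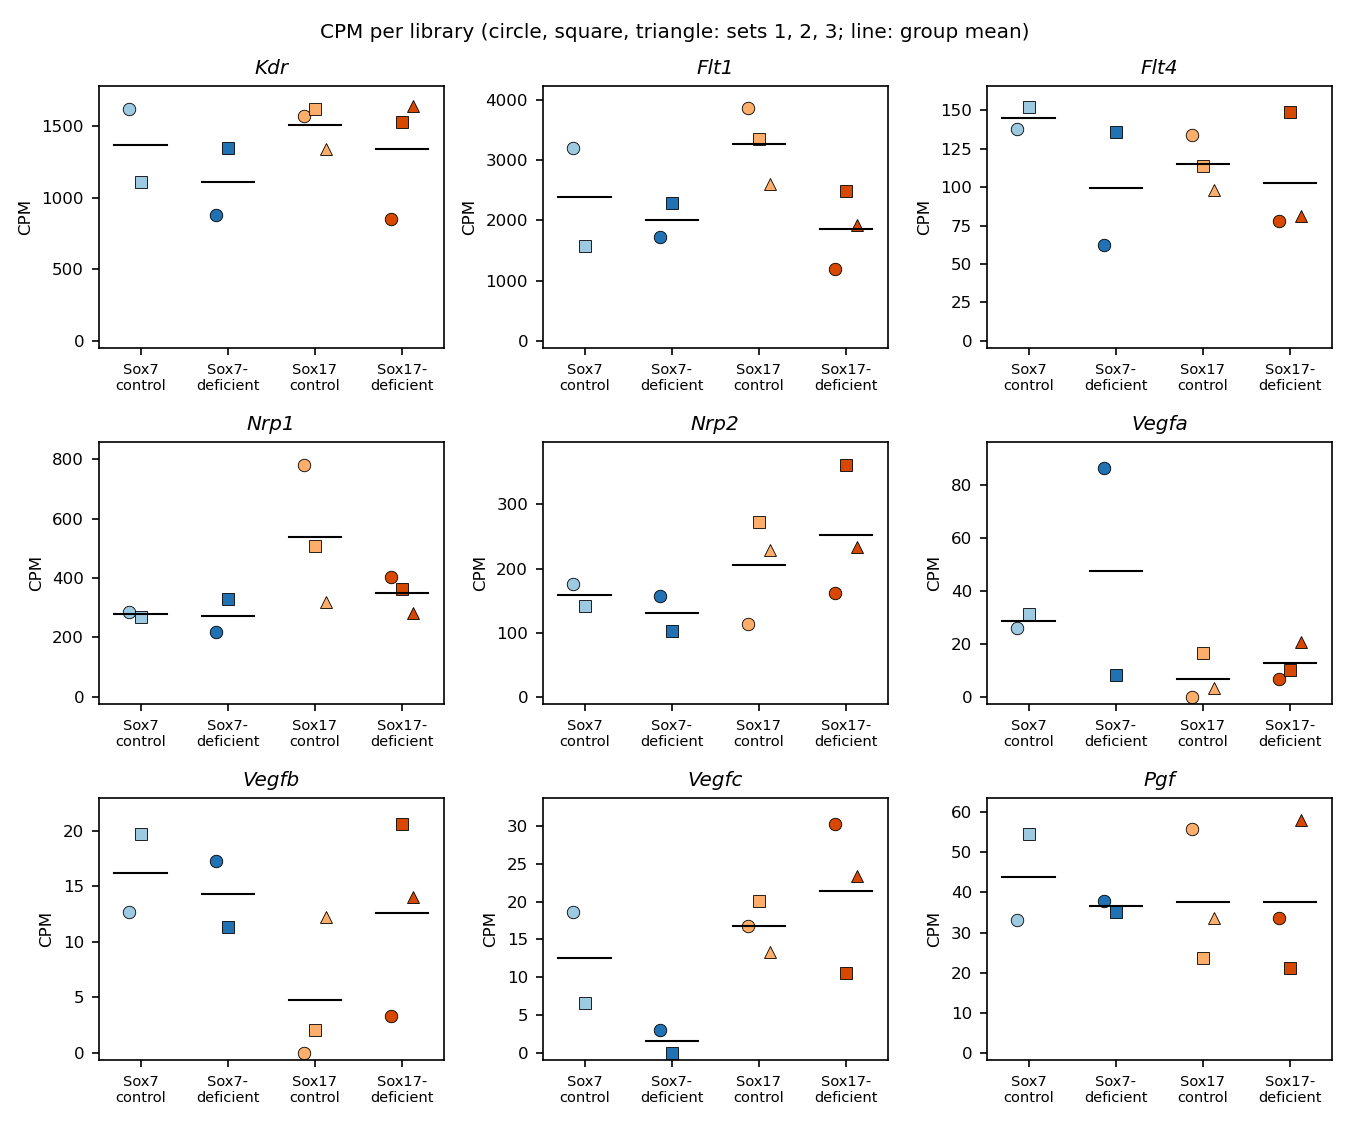
CPM of each gene (y axis, linear, each panel with its own range) in the 10 libraries, by group. Points are libraries (circle, square and triangle for sets 1, 2 and 3) and the line is the group mean. In the Sox17 arm the 3 deficient libraries lie below the 3 controls for Flt1, with 1190 to 2490 CPM against 2610 to 3860 CPM.

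None of the 9 genes passed the threshold in either arm. At an adjusted p under 0.05, edgeR called 0 of 13040 genes (0%) in the Sox7 comparison and 0 of 13040 (0%) in the Sox17 comparison, and so 0 of the 9 in each. The targeted genes Sox7 and Sox17, low in the deficient libraries, were not called either. In the Sox17 comparison the smallest edgeR adjusted p of any gene was 0.226. A gene that was not called may therefore still have changed. At an unadjusted p under 0.05 there were 195 and 459 genes in this fit, and again 0 of the 9 in each. DESeq2 called 3 and 29 genes and limma-voom 0 and 0, edgeR with a block for the set 1 and 6, and edgeR with no filter on low counts 58 and 30, none of them among the 9. In these 4 fits, in that order, the unadjusted p of Flt1 in the Sox17 comparison was 0.0222, 0.0283, 0.0201 and 0.117. That of Vegfc in the Sox7 comparison was 0.0201, 0.04, 0.0275 and 0.0411. DESeq2 gave 380 and 567 of all genes an unadjusted p under 0.05 in the Sox7 and the Sox17 comparison. The edgeR adjusted p was 1 for every one of the 9 genes in both comparisons, in the difference between them and in their average, and log2 differences below are edgeR estimates with their SE. The common biological coefficient of variation, edgeR's measure of the spread between libraries of a group, was 0.989. No label states that each library is a different animal, and the p-values then measure only how far these samples spread, which may be technical.

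Differences are therefore given by library and set, beside the share of all genes with the same pattern. Both Sox7-deficient libraries lay below both controls for 2 of the 9 genes, Flt4 and Vegfc, a pattern that 12.8% of all tested genes showed, and above both controls for 0 of the 9, against 12.7% of all. All 3 Sox17-deficient libraries lay below all 3 controls for 1 of the 9, Flt1, against 4.23% of all genes, and above them for 0 of the 9, against 4.13%. By the sign of the fitted difference 8 of the 9 were lower in the Sox7 comparison (median log2 difference −0.26, against 0.04 over all genes). That split depended on the scale. With libraries scaled to the endothelial reference genes, by their sum or by their geometric mean, 2 of the 9 were lower, with medians of 0.20 and 0.21 where all genes had 0.53 and 0.54. In the Sox17 comparison 4 of the 9 were lower (median 0.01, against 0.05 over all genes), and 6 and 5 were lower on those scales. Without Sox7-deficient 1 the Sox7 count was again 8 lower (median −0.34, against −0.26 over all genes), and without Sox17 control 1 the Sox17 count was 4 lower (median 0.00, against 0.01).

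**Figure D2:**
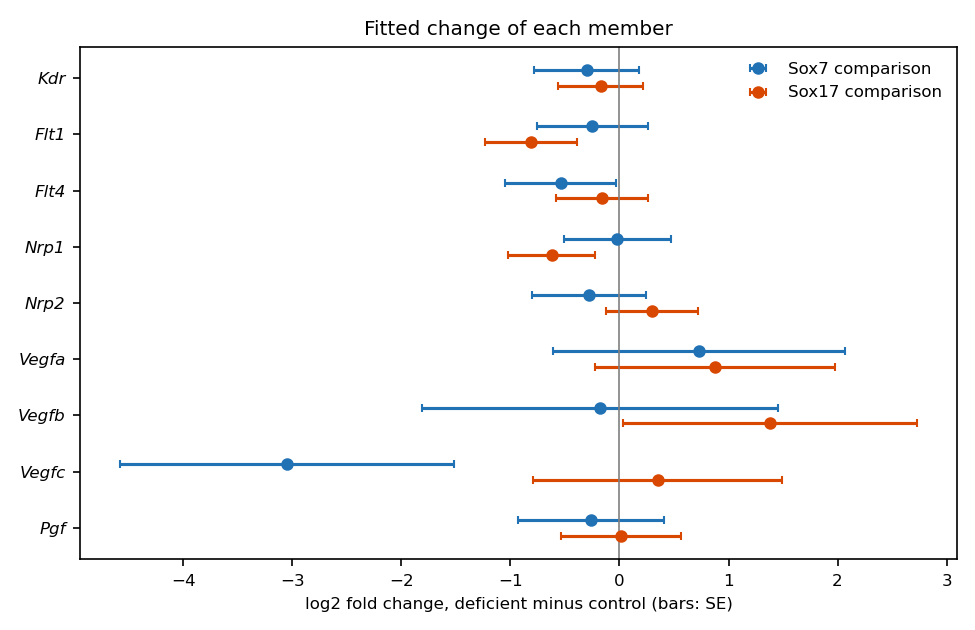
Fitted log2 fold change of each gene, deficient minus control (x axis), in the Sox7 and the Sox17 comparison. Points are edgeR estimates and bars are 1 SE. The widest bars belong to the ligands Vegfa, Vegfb and Vegfc, and Flt1 in the Sox17 comparison is at −0.81 with an SE of 0.42.

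Flt1 was the receptor gene with the most regular difference after loss of Sox17. It lies on chr5:147561604-147726011, minus strand (GRCm38, GENCODE vM21, protein-coding like the other 8 genes). Its levels in control and deficient were 3860 and 1190 CPM in Sox17 set 1, 3350 and 2490 in set 2 and 2610 and 1920 in set 3. Every deficient library was below every control, and the lowest control and the highest deficient library were close to each other. The group means were 1860 ± 653 CPM against 3270 ± 630 CPM (SD, n = 3 each), a fold of 0.57 in the fit (log2 −0.81, SE 0.42). Over the alternatives the log2 difference stayed negative, between −1.31 with the endothelial sum as the scale and −0.58 without Sox17-deficient 1, and the adjusted p lay between 0.877 and 1. Sox17 control 1 had the highest Flt1 and the fewest counts, and without it the difference was −0.69. The part of depth in the result was not tested.

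Flt1 showed no common direction after loss of Sox7. The levels were 3200 CPM in control 1 and 1720 in deficient 1, but 1580 in control 2 and 2290 in deficient 2. Controls and deficient libraries overlapped, with means of 2390 ± 1140 and 2010 ± 399 CPM (SD, n = 2 each; log2 −0.25, SE 0.51). The endothelial reference was itself lower by 0.86 in deficient 1 than in its control. Relative to it the Flt1 difference was −0.04 in set 1 and 0.56 in set 2, on the log2(CPM + 1) scale. The Sox7 difference minus the Sox17 difference was 0.56 (SE 0.66), so a difference between the arms was not shown. That value was 1.51 (edgeR adjusted p = 0.89) with the endothelial sum as the scale and 1.16 with the geometric mean, and ran from 0.13 without Sox7 control 2 to 1.14 without Sox7 control 1. The average of both was −0.53 (SE 0.33). In the difference and the average edgeR called 0 of 13040 genes (0%) each, with 374 and 334 at an unadjusted p under 0.05. DESeq2 called 15 and 6, limma-voom 0 and 0, and the block fit 3 and 1.

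The ratio of Flt1 to Kdr counts within a library does not depend on library scaling. Flt1 binds VEGF-A without much signal and Kdr gives most of the signal. The ratio was 2.46 and 1.4 in the control and the deficient library of Sox17 set 1, 2.08 and 1.63 in set 2 and 1.95 and 1.17 in set 3. It was lower in the deficient library of each Sox17 set, and the groups did not overlap. The means were 1.4 ± 0.229 against 2.16 ± 0.269 (SD, n = 3 each; log2 difference −0.63, exact two-sided permutation p = 0.1, the smallest that 3 against 3 can give, adjusted p = 0.2 over 2 tests). For comparison, the ratio to Kdr was lower in all 3 deficient libraries than in all 3 controls for 2% of all genes.

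The Flt1 to Kdr ratio in the Sox7 arm was 1.97 and 1.96 for the control and the deficient library in set 1 and 1.42 and 1.7 in set 2. The groups overlapped, with means of 1.83 ± 0.187 in deficient and 1.7 ± 0.385 in control libraries (SD, n = 2 each; log2 difference 0.12, exact two-sided permutation p = 1, smallest possible 0.333, adjusted p = 1). Leaving out Sox17 libraries in turn kept the Sox17 log2 difference between −0.75 and −0.51. The same in the Sox7 arm gave −0.11 to 0.36.

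**Figure D3:**
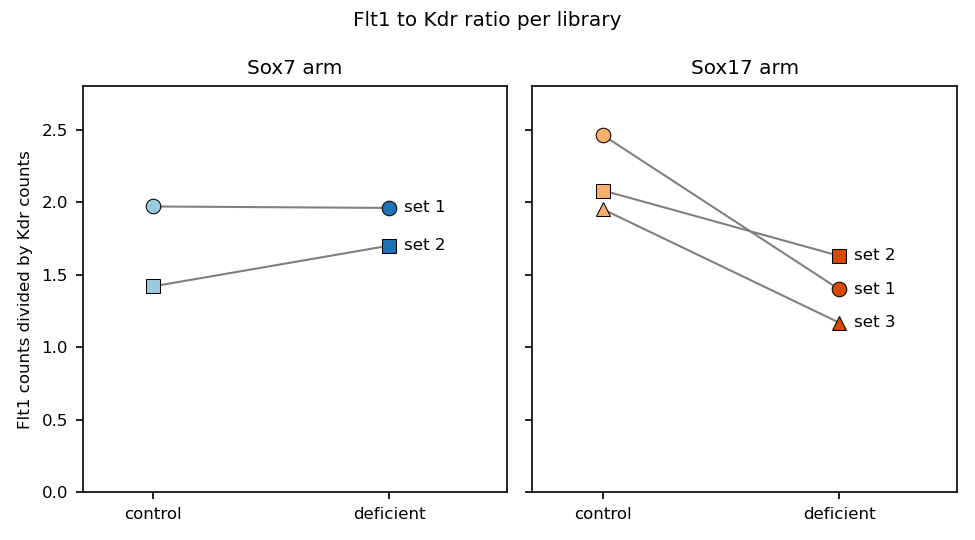
Flt1 counts divided by Kdr counts (y axis, linear, from 0) in control and deficient libraries of each arm. Points are libraries and lines join the libraries of a set. In the Sox17 arm all 3 lines go down, from 1.95 to 2.46 in controls to 1.17 to 1.63 in deficient libraries, and in the Sox7 arm set 1 is nearly level (1.97 and 1.96) and set 2 goes up (1.42 and 1.7).

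Kdr itself was lower in the deficient library of Sox17 set 1, close to its control in set 2 and higher in set 3. In set 3 Flt1 differed by −0.44 and Kdr by 0.29 on the log2(CPM + 1) scale, and both enter the ratio. Its gene lies on chr5:75932827-75978458, minus strand. The levels were 1570 and 850 CPM in the control and the deficient library of Sox17 set 1, 1620 and 1530 in set 2 and 1340 and 1640 in set 3. The deficient libraries held both the lowest and the highest value of the arm (means 1340 ± 426 and 1510 ± 149 CPM, log2 −0.17, SE 0.39). Without Sox17-deficient 1 the log2 difference was 0.06, and without Sox17-deficient 3 it was −0.34. After loss of Sox7 Kdr was at 1620 and 879 CPM in set 1 and 1110 and 1350 in set 2 (means 1370 ± 363 in controls and 1110 ± 332 in deficient libraries, log2 −0.30, SE 0.48). This ran from −0.64 without Sox7-deficient 2 to −0.02 without Sox7 control 1. Relative to the endothelial reference the set differences were −0.03 and 0.31, so that the lower Kdr of Sox7-deficient 1 went with lower reference genes in the same library.

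Flt4, the VEGF-C receptor gene on chr11:49609263-49652739, plus strand, was below both controls in both Sox7-deficient libraries. Its levels were 138 and 62.6 CPM for the control and the deficient library in set 1 and 152 and 136 CPM in set 2. The gap rested on set 1, since deficient 2 was close to control 1. The means were 99.4 ± 52 against 145 ± 9.59 CPM (log2 −0.54, SE 0.51). Without Sox7-deficient 1 the difference was −0.12, and without Sox7-deficient 2 it was −1.21. Relative to the endothelial reference set 1 had −1.52 in the control and −1.80 in the deficient library, set 2 had −1.21 and −1.34, and the groups then overlapped. After loss of Sox17 Flt4 was at 134 and 78.1, 114 and 149, and 98 and 81.5 CPM in the sets. The order of control and deficient differed between those sets (means 103 ± 39.8 and 115 ± 18.2 CPM, log2 −0.16, SE 0.42), between −0.53 without Sox17-deficient 2 and −0.01 without Sox17-deficient 1.

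The 2 neuropilin genes pointed opposite ways after loss of Sox17, both within the spread. Nrp1, on chr8:128358604-128503363, plus strand, encodes the co-receptor that holds VEGF-A beside VEGFR2. Its exons overlap the microRNA gene Mir1903 on the same strand. Nrp1 was at 782 and 403 CPM in the control and the deficient library of Sox17 set 1, 509 and 363 in set 2 and 320 and 282 in set 3. Within each set the deficient library was lower, but control 3 was below 2 of the deficient libraries, so the groups overlapped. The means were 350 ± 61.9 against 537 ± 233 CPM (log2 −0.62, SE 0.40), and the difference was −0.26 without Sox17 control 1 and −0.88 without Sox17 control 3.

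Markers of pericytes, the mural cells of small vessels, were uneven in that arm. The 8 pericyte markers, all tested, summed to 848, 684 and 274 CPM in Sox17 controls 1, 2 and 3 and to 208 to 235 CPM in the deficient libraries. Of the sum in control 1, 640 CPM were Rgs5, and each of the other 7 markers was higher in control 2 than in control 1. Among the deficient libraries the lowest sum, 208 CPM, was in deficient 1, which had the highest Nrp1 of the 3. The sums in the Sox7 arm were 253 to 366 CPM in controls and 308 to 560 CPM in deficient libraries. The 5 erythroid markers summed to 2910 CPM in Sox17 control 1, within 126 to 2910 CPM in Sox17 controls and 68.5 to 430 CPM in Sox17-deficient libraries. The part of pericytes and of erythroid cells in the Nrp1 levels was not tested. The Sox7 arm had Nrp1 at 287 and 219 CPM in set 1 and 269 and 330 CPM in set 2. The sets went opposite ways and the means were close, 278 ± 12.3 in controls and 274 ± 78.7 in deficient libraries (log2 −0.02, SE 0.49).

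Nrp2, on chr1:62703285-62818695, plus strand, encodes the neuropilin that binds VEGF-C and semaphorin 3F. It was at 114 and 162 CPM in the control and the deficient library of Sox17 set 1, 272 and 362 in set 2 and 229 and 234 in set 3. The deficient library was higher in each set, by 0.50, 0.41 and 0.03 on the log2(CPM + 1) scale, but differences among sets were wider than those within them. The means were 252 ± 101 and 205 ± 81.5 CPM (log2 0.30, SE 0.42). The Sox7 arm had Nrp2 at 176 and 157 CPM in set 1 and 141 and 103 CPM in set 2 (means 130 ± 38.3 against 159 ± 25 in controls, log2 −0.28, SE 0.52), between −0.65 without Sox7-deficient 1 and −0.01 without Sox7-deficient 2. The difference between the arms was −0.58 (SE 0.67), and 0.27 and 0.07 on the endothelial scales. An antisense gene, Gm29083, overlaps Nrp2 with no exon in common, and the strand used in counting is not given in the sources used here.

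Vegfa was low in these libraries and the most variable of the 9. Its gene lies on chr17:46016993-46032369, minus strand, and makes the main angiogenic ligand. In the Sox7 arm it was at 25.9 and 86.3 CPM for the control and the deficient library in set 1 and 31.3 and 8.36 CPM in set 2. The sets went opposite ways, 3.34-fold higher and to 0.267 of control, so that the means of 28.6 ± 3.88 and 47.3 ± 55.1 CPM describe neither (log2 0.73, SE 1.34). Without Sox7-deficient 1 the log2 difference was −1.80, and without Sox7-deficient 2 it was 1.59. Sox7-deficient 1 also had the 12 macrophage and microglia markers, all tested, at 13800 CPM, against 813 in its control, 232 and 107 in Sox7 set 2 and 18.2 to 504 in the Sox17 arm. Its Csf1r, the receptor gene that defines these cells, was at 587 CPM, against 0.454 to 28.7 in the other 9 libraries. Their part in the Vegfa level was not tested.

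**Figure D4:**
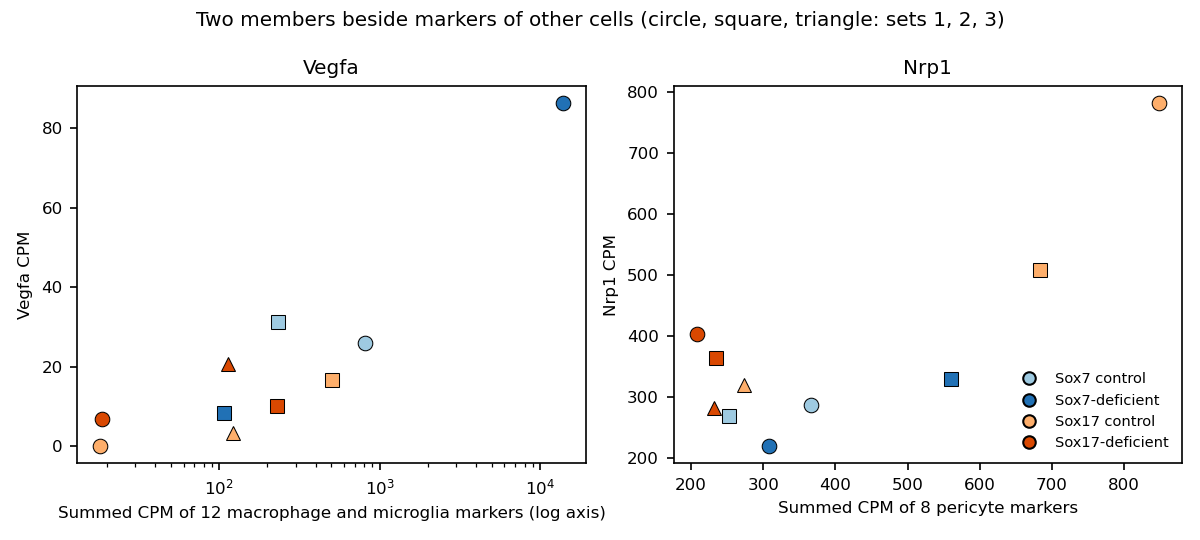
Left: Vegfa CPM against the summed CPM of 12 macrophage and microglia markers (log axis). Right: Nrp1 CPM against the summed CPM of 8 pericyte markers. Points are the 10 libraries, and the highest Vegfa (86.3 CPM, Sox7-deficient 1) and the highest Nrp1 (782 CPM, Sox17 control 1) are in the libraries with the highest marker sums. Of the pericyte sum in Sox17 control 1, 640 CPM of 848 are Rgs5.

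Vegfa in the Sox17 arm had 0 counts in control 1 and was at 6.88 CPM in deficient 1. It was at 16.7 and 10.2 CPM in set 2 and 3.28 and 20.7 CPM in set 3. The deficient library was higher in 2 of the 3 sets, at least 5.05-fold in set 1 against a floor of 3 counts and 6.31-fold in set 3, and lower in set 2. Control 1 is the shallowest library, where 3 counts are 1.36 CPM. The means were 12.6 ± 7.22 and 6.65 ± 8.83 CPM (log2 0.88, SE 1.10). The difference was 0.33 without Sox17 control 1 or without Sox17-deficient 3, 2.73 without Sox17 control 2 and 2.06 with a block for the set.

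Vegfb, on chr19:6982473-6987651, minus strand, makes a ligand of VEGFR1 linked to fatty acid handling and vessel survival. Among Sox17 libraries it had 0 counts in control 1 and was at 3.3 CPM in deficient 1, with 2.05 and 20.6 CPM in set 2 and 12.2 and 14 CPM in set 3. The deficient library was higher in each set, at least 2.43-fold, 10-fold and by 0.19 on the log2(CPM + 1) scale, but deficient 1 lay below control 3. The means were 12.6 ± 8.72 and 4.75 ± 6.53 CPM (log2 1.38, SE 1.35). The difference was 0.82 without Sox17 control 1, 3.46 without Sox17 control 3, 2.73 with limma-voom and 2.60 with a block for the set. Among Sox7 libraries Vegfb was at 12.7 and 17.3 CPM in set 1 and 19.7 and 11.3 CPM in set 2 (log2 −0.18, SE 1.63).

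Pgf, on chr12:85166635-85177790, minus strand, makes placental growth factor, a ligand of VEGFR1 alone among the VEGF receptors. It was the ligand with the highest mean and had no common direction in either arm. Sox7 libraries had it at 33 and 37.8 CPM in set 1 and 54.5 and 35.2 CPM in set 2 (log2 −0.26, SE 0.67). Sox17 libraries had it at 55.8 and 33.7, 23.6 and 21.2, and 33.5 and 58.1 CPM, with means of 37.7 ± 18.7 and 37.6 ± 16.5 (log2 0.01, SE 0.55). Groups overlapped in both arms.

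Vegfc, on chr8:54077606-54187096, plus strand, makes the ligand of VEGFR3 and gave the widest difference of the 9 genes after loss of Sox7. It was at 18.6 and 3.03 CPM (155 and 21 counts) for the control and the deficient library in set 1. In set 2 it was at 6.64 CPM in the control (72 counts) and had 0 counts in the deficient library, whose floor of 3 counts is 0.398 CPM. Both deficient libraries lay below both controls: the fold was 0.163 in set 1, and deficient 2 was at least 16.7-fold lower than its control. The means were 1.52 ± 2.14 against 12.6 ± 8.43 CPM (SD, n = 2 each; log2 −3.05, SE 1.53). The fitted value depends on how the library at 0 is treated and is no bound. It ran from −10.24 without Sox7-deficient 1 to −2.05 without Sox7-deficient 2, and the adjusted p from 0.179 to 1. Relative to the endothelial reference the 2 controls had Vegfc at −4.35 and −5.53 and the 2 deficient libraries at −5.78 and −8.44, and the groups again did not overlap.

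Vegfc in the Sox17 arm was at 16.8 and 30.3, 20.1 and 10.5, and 13.4 and 23.4 CPM for the control and the deficient library in each of the 3 sets. The deficient library was higher in 2 sets and lower in the other (means 21.4 ± 10 and 16.8 ± 3.32 CPM, log2 0.35, SE 1.14), and the difference was 0.01 without Sox17-deficient 1 and 0.68 without Sox17-deficient 2. The difference between the arms was −3.40 (SE 1.87), and ran from −10.57 without Sox7-deficient 1 to −2.40 without Sox7-deficient 2. The set differences were −2.28 and −2.93 in the Sox7 sets and 0.81, −0.87 and 0.76 in the Sox17 sets on the log2(CPM + 1) scale.

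**Figure D5:**
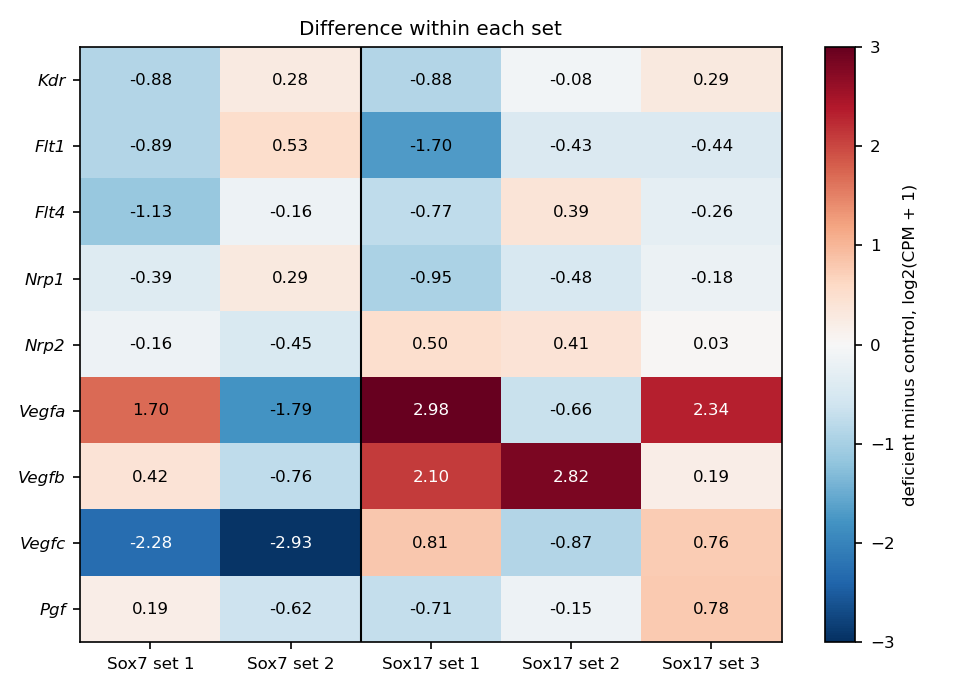
Deficient minus control within each set on the log2(CPM + 1) scale, for the 9 genes (rows) and 5 sets (columns). Blue is lower and red higher in the deficient library. Flt1 is blue in all 3 Sox17 sets (−1.70, −0.43 and −0.44), Vegfc is blue in both Sox7 sets (−2.28 and −2.93), and the Vegfa row changes sign within both arms.

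Other genes of the VEGF system were read from 7 fixed lists, and 0 genes of any list passed the threshold in either comparison with edgeR. On the endothelial scales the splits between lower and higher moved, and both scales are given, the sum first. The splits are to be read against all tested genes, of which 47.1% were lower in the Sox17 comparison (61.2% and 51.8% on the endothelial scales) and 47.5% in the Sox7 comparison (26.5% and 26.1%). Beside these counts, 195 and 459 of all genes had an unadjusted p under 0.05 in the Sox7 and the Sox17 comparison. With no filter on low counts 1 listed gene was called, Cd63, in the Sox7 comparison. The genes named below were taken only from those with the same sign in every set of the arm, so that shared sign is no result. Of these, up to 2 per list and direction with the smallest p were taken, so other genes of a list may have a smaller p. All had an edgeR adjusted p of 1. Their log2 differences are those of the main fit, and in the Sox7 comparison all were higher (less negative or more positive) on both endothelial scales. Genes introduced by "also taken" met the same rule and are given by their fitted log2 difference. Ranges given without a further word are over leaving out 1 library in turn.

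Of 6 tested other ligands of the family and of neuropilins, 2 were lower in the Sox17 comparison (3 and 3 on the endothelial scales; median 0.39) and 2 in the Sox7 comparison (2 and 2; median 1.29, range 0.59 without Sox7-deficient 2 to 4.25 without Sox7 control 1). Sema3c, a secreted semaphorin that signals through neuropilins and plexin D1, was at 35 ± 13.1 CPM in Sox17-deficient and 126 ± 58.4 CPM in Sox17 control libraries. Its differences were −1.87, −1.91 and −1.51 in the sets (log2 −1.85, SE 0.53), and it stayed between −2.18 and −1.57 over the alternatives. In the Sox7 comparison Sema3f, a semaphorin that binds neuropilin 2, was at 69.6 ± 42 against 19.9 ± 12 CPM (log2 1.81, SE 0.69, range 1.00 to 2.60). Sema3g was at 1.08 ± 1.53 against 16.6 ± 1.36 CPM (log2 −3.93, SE 2.72, range −10.64 to −2.94), with −2.40 and −4.22 in the sets. Figf, the older symbol of the gene for VEGF-D, the other VEGFR3 ligand, was at 7.78 ± 8.14 against 0.658 ± 0.931 CPM (log2 3.55, SE 2.52, range 1.61 to 9.50). Also taken were Sema3c in the Sox7 comparison (−0.46, range −1.33 to 0.20) and Sema3a in the Sox17 comparison (1.28, range 0.58 to 8.95).

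Of the 6 neuropilin co-receptors, the plexins, 4 were lower in the Sox17 comparison (4 and 4 on the endothelial scales; median −0.35, and 0.01 without Sox17-deficient 3) and 3 in the Sox7 comparison (2 and 2; median −0.05, range −0.65 to 0.24). Plxna3, a semaphorin receptor, had the smallest p of the list in the Sox17 comparison, with 0 counts in all 3 deficient libraries against 2.31 ± 1.76 CPM in controls. Its set differences lay between −2.21 and −0.39 on the log2(CPM + 1) scale. Plxnd1, an endothelial semaphorin receptor, was at 399 ± 126 against 272 ± 138 CPM in the Sox17 arm (log2 0.55, SE 0.41, range 0.27 to 1.04). Plxnb1 was at 22.1 ± 7.67 against 50.1 ± 12 CPM in the Sox7 arm (log2 −1.18, SE 0.80). Also taken in that arm were Plxna4 (−1.46, range −9.54 to −0.47), Plxna1 (0.82, range 0.51 to 1.04) and Plxna3 (1.95, range −4.65 to 10.44).

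Of 11 receptor partners and trafficking genes, 5 were lower in the Sox17 comparison (8 and 6 on the endothelial scales; median 0.05, range −0.22 to 0.17) and 6 in the Sox7 comparison (4 and 4; median −0.02, and −0.36 without Sox7-deficient 1). Itgb3, the integrin beta 3 chain that pairs with VEGFR2, was at 84.2 ± 19.1 CPM in Sox17-deficient and 34.8 ± 17.3 CPM in control libraries (log2 1.27, SE 0.49). Its set differences were 1.76, 1.68 and 0.60. Ptprb, a phosphatase that acts on VEGFR2 and on endothelial cadherin, was at 721 ± 138 against 1530 ± 1050 CPM (log2 −1.08, SE 0.45), and ran from −1.38 without Sox17 control 2 to −0.36 without Sox17 control 1. Ephb4, the venous ephrin receptor, was at 80.1 ± 2 against 126 ± 2.79 CPM in the Sox7 arm, lower by 0.65 in both sets (log2 −0.66, SE 0.47). On both endothelial scales its log2 difference was −0.19. Also taken were Myo6 in the Sox17 comparison (−0.60), and Cdh5 (−0.55, range −0.82 to −0.30), Gipc1 (0.54, range 0.30 to 0.74) and Itgav (0.67, range −0.36 to 10.07) in the Sox7 comparison. Cdh5, itself an endothelial reference gene, was at −0.12 and −0.11 on the endothelial scales.

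Of 31 signalling genes downstream of the receptors, 16 were lower in the Sox17 comparison (20 and 16 on the endothelial scales; median −0.01, and 0.29 without Sox17 control 3) and 18 in the Sox7 comparison (11 and 11; median −0.27, and 0.07 without Sox7 control 2). Akt1, the kinase of survival signalling, was at 184 ± 39.1 against 109 ± 20.7 CPM in the Sox17 arm (log2 0.76, SE 0.40). Prkcb, a protein kinase C activated below VEGFR2, was in the Sox7 arm at 119 ± 13.1 against 51.8 ± 0.839 CPM (log2 1.19, SE 0.58). Ptk2, the focal adhesion kinase gene, was at 29.7 ± 6.36 against 89.9 ± 37.8 CPM (log2 −1.60, SE 0.60). Also taken were Ppp3ca (−0.44) and Shb (−0.87, range −1.48 to −0.34) in the Sox17 comparison, and Ppp3cb (1.32, range 0.74 to 2.27) and Fyn (−0.59, range −0.94 to −0.33) in the Sox7 comparison.

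Of 19 tested genes that VEGF induces in endothelium, 13 were lower in the Sox17 comparison (15 and 13 on the endothelial scales; median −0.21, and 0.16 with 9 lower without Sox17 control 3) and 11 in the Sox7 comparison (7 and 7; median −0.02). Nr4a2, an orphan nuclear receptor, was at 78.1 ± 52.8 against 227 ± 61.4 CPM (log2 −1.53, SE 0.69). Mef2c, a transcription factor of endothelial growth, was at 222 ± 72.6 against 504 ± 346 CPM (log2 −1.18, SE 0.48), and ran from −1.52 without Sox17 control 2 to −0.48 without Sox17 control 1. Angpt2, the Tie2 ligand released by activated endothelium, went the other way, with 519 ± 85.9 against 294 ± 26.8 CPM and 0.60, 1.11 and 0.70 in the sets (log2 0.82, SE 0.37). In the Sox7 comparison the median ran from −0.62 without Sox7-deficient 1 to 0.31, with 7 lower, without Sox7 control 1. Adamts1, a secreted protease, was in that arm at 392 ± 10.7 against 752 ± 213 CPM (log2 −0.94, SE 0.51). Also taken were F3 in the Sox17 comparison (4.12 ± 4.17 against 0.227 ± 0.393 CPM), and Nr4a1 (−0.89), Hlx (0.35, range −0.65 to 1.20) and Rcan1 (0.33, range −0.43 to 0.81) in the Sox7 comparison.

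Of 15 tested factors that control receptor genes, 8 were lower in the Sox17 comparison (10 and 9 on the endothelial scales; median −0.20, and 0.06 without Sox17 control 1) and 10 in the Sox7 comparison (6 and 6; median −0.38, range −0.56 to −0.09). Klf2 and Klf4, the flow-responsive factors of endothelium, were at 317 ± 135 against 623 ± 204 CPM and at 492 ± 169 against 821 ± 51.4 CPM in the Sox17 arm. Their log2 differences were −0.97 (SE 0.46) and −0.74 (SE 0.41). Mecom, a zinc finger factor of arterial endothelium, was at 32.7 ± 5.59 against 67.9 ± 6.89 CPM in the Sox7 arm (log2 −1.06, SE 0.55). Also taken were Elk3 (0.55, range 0.39 to 0.85) and Tal1 (0.59, range 0.12 to 1.14) in the Sox17 comparison, and Tal1 in the Sox7 comparison (−1.13, range −1.47 to −0.74). Of 8 oxygen-sensing genes, whose products control Vegfa and Flt1 in many cells, 2 were lower in the Sox17 comparison (5 and 3 on the endothelial scales; median 0.19, range 0.04 to 0.32) and 3 in the Sox7 comparison (2 and 2; median 0.37, and −0.14 without Sox7-deficient 2). Epas1, the endothelial hypoxia-inducible factor gene, was at 936 ± 54.8 against 1170 ± 222 CPM in the Sox17 arm (log2 −0.32, SE 0.43, range −0.44 to −0.18). Hif1a was at 137 ± 21.3 against 98.4 ± 11.9 CPM in the Sox7 arm (log2 0.48, SE 0.52, range 0.28 to 0.63). Also taken in that arm were Epas1 (−0.59, range −1.50 to −0.03), Egln1 (−0.40, range −0.85 to −0.06) and Vhl (0.92, range 0.50 to 1.43).

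The genes whose levels ran most like each of the 9 over the 10 libraries were picked among 8319 genes by Pearson's r of log2(CPM + 1). The 10 libraries share groups, sets and depth, so these are descriptions. Picking the highest of 8319 values over 10 libraries gives a high r through the picking itself. Flt1 ran closest to Mfhas1 (r = 0.955, and 0.913 after leaving out the 2 libraries farthest from the Flt1 median). Kdr ran closest to Sod1 (r = 0.897, and 0.647 without its 2 farthest libraries). Flt4 ran closest to Znrf1 (r = 0.943, then 0.862), Nrp1 to Chmp5 (0.968, then 0.895) and Nrp2 to Tiprl (0.956, then 0.966). Among ligands Vegfa ran closest to Rgs1 (r = 0.946, then 0.876), Vegfb to Tmem63a (0.954, then 0.776), Vegfc to F2r, the thrombin receptor gene (0.941, then 0.647), and Pgf to Zyx (0.958, then 0.947).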

How the data were processed

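The authors deposited 1 table of whole-number counts per gene symbol for each of the 10 libraries. Per the labels' protocols, libraries were made from 500 ng of Trizol RNA with the Lexogen Quant-Seq kit. Bowtie2, edgeR and mm10 are named per the submitters' processing notes, without roles or versions. The annotation, counter and strand setting are not given in the sources used here. Molecular identifiers are not mentioned, so floors of 3 counts cover counting error only.

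Groups came from genotype labels and titles. The 9 genes, their pathway lists and the marker lists were chosen with earlier results of these data known. Counts of the 23238 symbols shared by all files were tested (the 1183 further symbols of the Sox17 files, all beginning with Mir, were left out) in R 4.3.3 with edgeR 4.0.16: TMM scaling, filterByExpr (10198 genes removed, 13040 tested), a mean per group over all 10 libraries (6 residual degrees of freedom), robust quasi-likelihood F-tests and Benjamini-Hochberg adjustment over all genes tested, at 0.05. Each SE was computed from the log2 fold change and its F (size over root F). CPM uses TMM-scaled library sizes, and set differences are on log2(CPM + 1). The code was tested on simulated counts.

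Besides the 9 genes, the text names, per pathway list and direction, up to 2 genes, those with the smallest p that had the same sign in every set of the arm, and the most alike of the 3 genes with the highest Pearson r, among genes of 10 CPM or more. One gene that the rule takes is not reported here. Cd63, Prox1 and Csf1r were named after their values were seen. Marker lists covered endothelium, macrophages and microglia, pericytes, fibroblasts, astrocytes, glioma and neural progenitors, lymphatic endothelium, erythroid cells and T cells. Set numbers were taken to pair libraries, because the series' design speaks of independent sets and shared tags in the descriptions tie the libraries of 4 of the 5 sets. Correlations of same-numbered libraries' deviations from group means were 0.19 in both Sox7 sets and 0.12, 0.091 and 0.09 in the Sox17 sets. Alternatives were DESeq2 1.42.0, its size-factor method in edgeR (RLE), scaling to endothelial genes by sum and, added after the data were seen because Egfl7 and Esam weigh heavily in that sum, by geometric mean, no filter on low counts, limma-voom (limma 3.58.1), a replicate block, no Rn45s row, each arm alone and each library left out. Positions come from GENCODE vM21 on GRCm38 (mm10) and upstream sequences from RefSeq on GRCm38.p6.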

Additional observations from a re-analysis of the deposited data

Results flagged for a closer look

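Nrp2, the neuropilin gene, was noted because it was lower in the deficient library of both Sox7 sets (by 0.16 and 0.45 on the log2(CPM + 1) scale) and higher in the deficient library of all 3 Sox17 sets (by 0.50, 0.41 and 0.03). The Sox7 difference minus the Sox17 difference was −0.58 (SE 0.67, edgeR adjusted p = 1), so the test of the difference did not pass. It was 0.27 with libraries scaled to the sum of the endothelial reference genes and 0.07 with their geometric mean. Relative to the endothelial reference the 2 Sox7 sets gave 0.69 and −0.42.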

How the results depend on the processing

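None of the 9 genes passed the threshold under any alternative that was run. The numbers of genes called in the Sox7, Sox17, difference and average comparisons, 0 in each with edgeR as reported, were 3, 29, 15 and 6 with DESeq2 and 58, 30, 58 and 23 with no filter on low counts. With the replicate block they were 1, 6, 3 and 1, and the block changed no other call. The Sox17 count was 1 with the endothelial sum scale, and leaving out 1 library gave 0 to 14, 0 to 1, 0 to 9 and 0 to 4, the highest of each without Sox7-deficient 1. Causes of these changes were not tested.

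Signs turned for small differences. In the Sox7 comparison, on the endothelial sum and geometric mean scales, Kdr was at 0.13 and 0.13, Flt1 at 0.20 and 0.21, Nrp1 at 0.40 and 0.40, Nrp2 at 0.23 and 0.27, Vegfb at 0.33 and 0.34 and Pgf at 0.20 and 0.20. Nrp1 was at 0.00 with DESeq2 and with RLE scaling, and Vegfa at −0.18 with limma-voom and −0.07 with the replicate block. In the Sox17 comparison Nrp2 was at −0.04 on the sum scale, Pgf at −0.44 and −0.10 on the 2 scales and −0.03 with DESeq2, RLE scaling and the replicate block, and Vegfc at −0.13 with limma-voom. The Nrp2 difference between the arms was 0.27 and 0.07 on the 2 scales.

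Leaving out 1 library gave these ranges where a sign turned. In the Sox7 comparison Flt1 ran from −0.68 to 0.32, Nrp1 from −0.35 to 0.22, Vegfa from −1.80 to 1.59, Vegfb from −0.55 to 0.17 and Pgf from −0.60 to 0.14. In the Sox17 comparison Kdr ran from −0.34 to 0.06, Nrp2 from −0.05 to 0.55 and Pgf from −0.45 to 0.38. The average Vegfa difference ran from −0.46 to 1.72 and the Sox7 log2 ratio of Flt1 to Kdr from −0.11 to 0.36. Where this left 1 library in a group, that library was assumed to vary like the others. The signs of Flt1, Flt4, Nrp1, Vegfa and Vegfb in the Sox17 comparison stayed as reported under every alternative run. So did those of Flt4 and Vegfc in the Sox7 comparison. A steady sign of the fit does not mean that the sets shared it, since Flt4 and Vegfa went both ways among the Sox17 sets. Vegfa and Vegfb had 0 counts in Sox17 control 1, where 3 counts are 1.36 CPM, and Vegfc had 0 counts in Sox7-deficient 2, where they are 0.398 CPM.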
